A study of Mus musculus with 9 samples.

Results

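The genes described here carry the cyclic nucleotide signal that relaxes smooth muscle. They are Pde5a, Prkg1, Pde3a, Pde4d, Pde1a, Mrvi1 (also called Irag1), Adrb3 and Prkaca, and their transcripts were compared over 3 layers of the newborn mouse bladder. Every probe set that the platform annotation gives to these 8 symbols was taken, whatever its values. This gave 16 probe sets of the 45101 on the array, for 7 of the 8 genes. Adrb3, a beta adrenergic receptor of the detrusor, had no probe set under this rule and is not analysed here. A probe set was tested when it stood at or above its array's median signal on at least 3 of the 9 arrays. Of the 16, 12 passed this filter and 4 did not, 2 of Pde3a, 1 of Pde4d and 1 of Pde1a.

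Smooth muscle relaxes when cGMP or cAMP rises inside the cell. Nitric oxide and natriuretic peptides raise cGMP, which activates the cGMP-dependent protein kinase encoded by Prkg1, whereas receptors coupled to stimulatory G proteins raise cAMP, which activates protein kinase A (PKA). Both kinases act on calcium handling and on the phosphatase that dephosphorylates myosin, and phosphodiesterases end the signal by hydrolysing the cyclic nucleotides. In the bladder this pathway keeps the detrusor relaxed during filling, and inhibitors of phosphodiesterase 5 and agonists of beta adrenergic receptors act on it.

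Detrusor (the smooth muscle coat), stroma (the connective tissue between muscle and lining) and urothelium (the lining epithelium) were cut by laser capture from frozen bladder sections, and 3 arrays were made of each layer. All mice were newborn FVB/N animals of unrecorded sex that carried the SMGA/EGFP transgene, a fluorescent reporter named for smooth muscle gamma actin (Actg2), so no layer came from animals without it. Detrusor had 2 arrays from postnatal day 1 and 1 from day 2, and stroma and urothelium each had 1 from day 1 and 2 from day 2. Arrays are numbered here within each layer in the order of the samples, and equal numbers do not mark matched samples. Samples were not pooled, but the labels do not tie them to animals, so the p-values measure the spread between these samples. They are too small if arrays of the same layer share an animal. Layers cut from the same animal would be a pairing that the fit leaves out, and its effect on the p-values was not tested.

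Markers showed that the captured layers were not pure. The summed intensity of 7 smooth muscle markers was 264386.5 to 378642 on the detrusor arrays, 48920.5 to 157399 in stroma and 19639.5 to 259141 in urothelium. Its highest urothelial value came from urothelium 3, where the 7 markers stood unevenly, at 17.4% (Smtn) to 121% (Acta2) of their detrusor means. There Myh11, smooth muscle myosin heavy chain, had an intensity of 51568, against 820 and 221 in urothelium 1 and 2. Stroma 3 had 64295 units of the uroplakin gene Upk1b, against 5850 in stroma 1 and 1182 in stroma 2. Detrusor also carried skeletal muscle transcripts, with a sum over 6 markers of 101739 to 119149, against 1384 to 9520 in stroma and 225 to 31739 in urothelium. Results that rest on stroma 3 or urothelium 3 are therefore also given without these arrays.

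With each gene taken at its brightest tested probe set, 6 of the 7 measured genes had their highest mean level in detrusor, and Prkaca did not. Of the 7, 2, Pde3a and Mrvi1, exceeded their stroma level in detrusor at an adjusted p under 0.05, and 5, Pde5a, Prkg1, Pde3a, Pde4d and Mrvi1, exceeded their urothelial level. None was called lower. In the fit with 1 probe set for each gene, 408 of 13064 genes were called higher and 355 lower against stroma. Against urothelium these were 1051 and 1094. The counts of the 7 genes are a description. Pde3a passed the filter through its detrusor arrays alone, and the members were chosen with earlier results of these data known. Counted by probe set, 4 of 12 were called against stroma, where 3.56% of all 25695 tested probe sets were called and 2.05% were called higher. Against urothelium 7 of 12 were called, where 11.0% of all were called and 5.54% were called higher. All detrusor arrays lay above all stroma arrays for 9 of 12 probe sets, as for 10.3% of all, and above all urothelium arrays for 9 of 12, as for 17.4% of all. In a fit without the filter, 2 of all 16 probe sets were called higher against stroma and 7 against urothelium. Of 45037 probe sets, 387 and 1157 were called higher there, and 1.48% and 5.21% in either direction. The median log2 difference of the 7 genes was 1.32 against stroma and 2.52 against urothelium, beside medians of -0.17 and 0.02 over all tested probe sets. In such bulk samples, fewer muscle cells and less RNA per cell cannot be told apart.

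**Figure D1:**
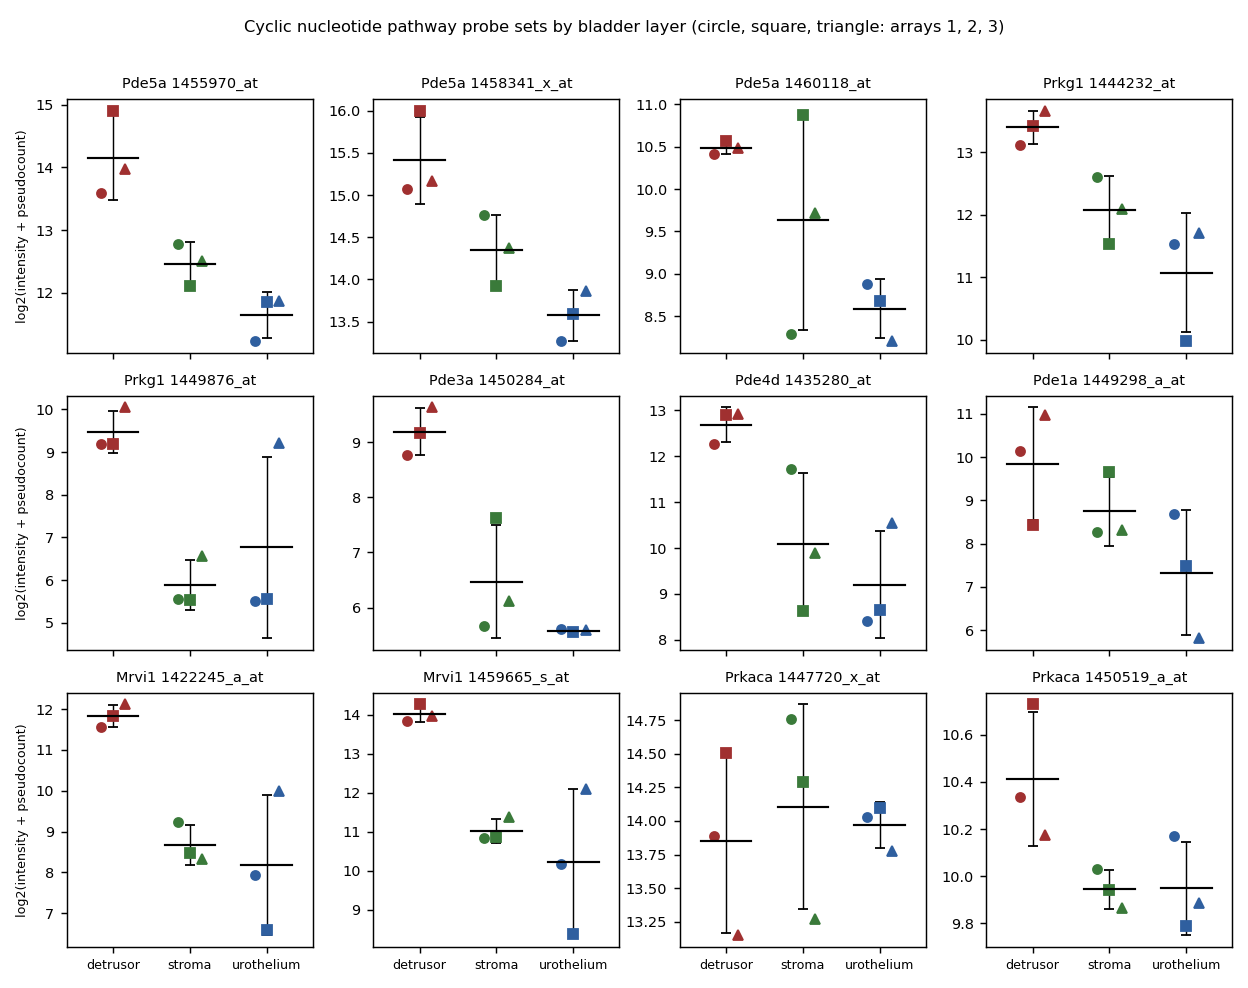
Log2(intensity + pseudocount) of the 12 tested probe sets (vertical axis, a scale of its own in each panel) in detrusor, stroma and urothelium, with 1 symbol for each array and the mean ± SD over 3 arrays as bars. The detrusor arrays lie above all others for Pde3a, Pde4d, both Mrvi1 probe sets, Prkg1 1444232_at and Pde5a 1455970_at and 1458341_x_at and, by a small margin, Prkaca 1450519_a_at, while the layers overlap for Prkaca 1447720_x_at.

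The upstream windows of 3 of these genes are shown because they stand for the patterns described next. Pde5a and Mrvi1 were high in detrusor, and Prkaca was not at its brighter probe set. Each window runs from 250 bases before to 50 after a RefSeq transcript start (GRCm38.p6) and is written on the gene's own strand. Capitals mark the motif matches listed after them.
Pde5a, chr3:122728908-122729207, plus strand: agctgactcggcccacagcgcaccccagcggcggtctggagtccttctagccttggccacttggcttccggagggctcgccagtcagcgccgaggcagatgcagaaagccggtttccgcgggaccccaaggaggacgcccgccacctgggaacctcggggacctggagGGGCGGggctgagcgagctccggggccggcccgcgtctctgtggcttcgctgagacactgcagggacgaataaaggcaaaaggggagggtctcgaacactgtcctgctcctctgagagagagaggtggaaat
Mrvi1, first of 2 windows, chr7:110982412-110982711, minus strand: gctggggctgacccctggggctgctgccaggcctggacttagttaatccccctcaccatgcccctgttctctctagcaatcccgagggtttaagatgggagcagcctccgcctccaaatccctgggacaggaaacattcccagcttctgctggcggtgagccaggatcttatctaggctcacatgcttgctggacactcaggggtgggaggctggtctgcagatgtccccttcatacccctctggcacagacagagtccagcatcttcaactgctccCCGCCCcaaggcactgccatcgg
Prkaca, first of 2 windows, chr8:83972728-83973027, plus strand: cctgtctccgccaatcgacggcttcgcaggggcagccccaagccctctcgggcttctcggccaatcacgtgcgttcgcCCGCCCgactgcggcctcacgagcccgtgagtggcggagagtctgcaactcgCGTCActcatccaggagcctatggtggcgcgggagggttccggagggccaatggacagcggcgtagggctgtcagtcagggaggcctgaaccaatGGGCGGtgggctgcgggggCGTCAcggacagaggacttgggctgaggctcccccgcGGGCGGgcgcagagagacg
The table held 12 windows for 6 of the 7 genes, with none for Pde3a. On both strands the letters searched were those of the GC box (GGGCGG), the full cAMP response element or CRE (TGACGTCA), the CRE core (TGACG, which lies inside the full element) and, by name, the CArG box, the site of serum response factor in smooth muscle genes. The Pde5a window held 1 GC box, starting at base 169 of 300, the Mrvi1 window held 1 at base 278, and the Prkaca window held 3 GC boxes and 2 CRE cores. Among the windows not shown, each Prkg1 window held 1 GC box and the third Pde1a window held 1 CRE core, at base 85. The second windows of Mrvi1 and Prkaca, the Pde4d window and the other Pde1a windows held none of these motifs. A GC box was found in 35.66% and a CRE core in 20.81% of all 32851 windows. Neither a CArG box nor a full CRE was found in the 12 member windows, and their shares over all windows were 1.63% and 1.79%. A match of letters is a description and not a binding site.

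Of the kinases, Prkg1 encodes the cGMP-dependent kinase of smooth muscle. Its brighter probe set, 1444232_at, had intensities of 8858, 10939 and 12885 in detrusor, 6205, 2905 and 4343 in stroma, and 2912, 965 and 3321 in urothelium. All detrusor arrays lay above all others, and stroma and urothelium overlapped. The log2 difference was 2.33 ± 0.47 (SE, n = 3 per layer, 5.02-fold, adjusted p = 0.00962) against urothelium and 1.32 ± 0.47 (adjusted p = 0.151) against stroma, so only the urothelial difference passed. It remained past the threshold with each of the 9 arrays left out in turn, with adjusted p up to 0.0499.

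The other Prkg1 probe set, 1449876_at, was dim. It read 547, 547 and 1018 in detrusor, 7.67, 7.19 and 54.9 in stroma, and 6.27, 7.79 and 558 in urothelium. The array that stood apart was urothelium 3, at 79.2% of the detrusor mean, and the other urothelial arrays were at 0.89% and 1.11%. On that same array the smooth muscle markers Acta2, Actg2 and Myh11 stood at 121%, 94.9% and 69.4% of their detrusor means, and Cnn1, Lmod1, Des and Smtn at 28.9%, 24.6%, 24.3% and 17.4%. The differences of 3.59 ± 0.93 against stroma (adjusted p = 0.0606) and 2.71 ± 0.93 against urothelium (adjusted p = 0.0921) did not pass. The probe set stood at or above the array median on 4 arrays, those of detrusor and urothelium 3. All stroma arrays were below it. Without urothelium 3 both differences passed, at 3.59 (adjusted p = 0.0142) and 3.94 (adjusted p = 0.0067), and without stroma 3 as well they were 3.93 (adjusted p = 0.0162) and 3.94 (adjusted p = 0.00486). In these fits it met the filter through its detrusor arrays alone, so it could hardly fail to differ. The stromal difference also passed after quantile normalization (adjusted p = 0.041), after median centring (adjusted p = 0.024) and with day as a covariate (adjusted p = 0.0461). The size at such dim values follows the pseudocount: against stroma it was 4.78 with the 5th percentile of all values and 1.84 (adjusted p = 0.0401) with their median.

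Prkaca encodes the alpha catalytic subunit of PKA, which most cell types express. Its probe set 1447720_x_at read 15146, 23268 and 9048 in detrusor, 27662, 19987 and 9844 in stroma, and 16710.5, 17515 and 14022 in urothelium. The layers overlapped throughout. The log2 difference was -0.26 ± 0.41 against stroma (95% interval -1.17 to 0.65, adjusted p = 0.772, and 0.16 after median centring) and -0.12 ± 0.41 against urothelium (95% interval -1.03 to 0.79, adjusted p = 0.911). The intervals leave room for a difference of about 1 log2 unit against either layer. The ending _x of this probe set marks probes that may also bind other transcripts. The other, 1450519_a_at, was dimmer, with 1254, 1657 and 1115 in detrusor, 1006, 944 and 893 in stroma, and 1113, 846 and 906 in urothelium. Every detrusor value of it lay above the other arrays by a small margin, but its differences of 0.47 ± 0.34 against stroma (adjusted p = 0.489) and 0.46 ± 0.34 against urothelium (adjusted p = 0.467) did not pass.

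Mrvi1 encodes the IP3 receptor-associated substrate through which the cGMP-dependent kinase restrains calcium release from stores. Both of its probe sets were called against both layers, which held for no other gene with more than 1 tested probe set. Probe set 1459665_s_at read 14656, 19622 and 16018 in detrusor, 1779, 1833 and 2623 in stroma, and 1118, 290.3 and 4361 in urothelium. Detrusor stood apart from every other array, and the highest value outside it again came from urothelium 3, at 26.0% of the detrusor mean. The difference was 3.0 ± 0.71 against stroma (8.00-fold, adjusted p = 0.0452) and 3.81 ± 0.71 against urothelium (14.0-fold, adjusted p = 0.00703).

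The second Mrvi1 probe set gave nearly the same differences. Probe set 1422245_a_at read 2969.6, 3586 and 4395 in detrusor, 563, 315 and 283 in stroma, and 206, 57.4 and 983 in urothelium, and it differed by 3.15 ± 0.71 against stroma (adjusted p = 0.0382) and 3.65 ± 0.71 against urothelium (adjusted p = 0.00827). Without stroma 3 and urothelium 3 the differences of 1459665_s_at were 3.18 (adjusted p = 0.0165) and 4.76 (adjusted p = 0.000897), and both remained called. The urothelial calls of both probe sets held with each array left out. The stromal calls held without urothelium 2 or urothelium 3 and were lost on leaving out any of the other 7 arrays, where the differences stayed between 2.88 and 3.43 and the adjusted p ran from 0.0523 to 0.159. They were also lost, for both probe sets, with the pseudocount at the 5th percentile, without the filter and without the variance trend in limma (adjusted p of 0.0528 to 0.0797).

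Among the phosphodiesterases, Pde5a encodes the cGMP-specific enzyme that sildenafil blocks. Probe set 1455970_at read 12323, 30728 and 16007 in detrusor, 6996, 4360.1 and 5784 in stroma, and 2352, 3653 and 3684 in urothelium. The 3 layers did not overlap and ran in the order detrusor, stroma, urothelium. The difference was 2.51 ± 0.38 against urothelium (5.70-fold, adjusted p = 0.00274) and 1.69 ± 0.38 against stroma (3.24-fold, adjusted p = 0.0361), and stroma and urothelium differed by 0.82 ± 0.38 (adjusted p = 0.333). The urothelial call held with each array left out. The stromal call held only without stroma 1, urothelium 2 or urothelium 3, and without any other array the difference was 1.32 to 1.98 with adjusted p of 0.0504 to 0.124. It was also lost without stroma 3 and urothelium 3 (1.72, adjusted p = 0.0885), without the variance trend (adjusted p = 0.0737) and with array weights (1.46, adjusted p = 0.0609).

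The brightest Pde5a probe set, 1458341_x_at, whose probes may also bind other transcripts, read 34325, 65624 and 36754 in detrusor, 27664, 15487 and 21188 in stroma, and 9814, 12276 and 14848 in urothelium. Here too the layers kept their order without overlap. It was called against urothelium (1.84 ± 0.32, adjusted p = 0.00487) and not against stroma (1.06 ± 0.32, adjusted p = 0.0987), where it passed after quantile normalization (1.03, adjusted p = 0.0467). In the remaining, dim probe set, 1460118_at, stroma 2 at 1842 exceeded all detrusor arrays, which read 1323, 1472 and 1394. Stroma 1 and 3 read 274 and 804, and urothelium 433, 371 and 256. Its difference against urothelium, 1.90 ± 0.58, missed the threshold (adjusted p = 0.0597) and passed without stroma 1 (adjusted p = 0.0157) or stroma 2 (adjusted p = 0.0226).

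Pde3a encodes a cAMP-hydrolysing enzyme that cGMP inhibits, which ties the cGMP and cAMP branches together. Its tested probe set, 1450284_at, read 398, 536 and 754 in detrusor, 11.2, 158 and 30.5 in stroma, and 9.34, 7.84 and 8.64 in urothelium. It passed the filter through its 3 detrusor arrays alone, so it could hardly fail to differ. The difference was 2.72 ± 0.66 against stroma (adjusted p = 0.0484) and 3.61 ± 0.66 against urothelium (adjusted p = 0.00619). Urothelium 3, where the 7 smooth muscle markers stood at 17.4% to 121% of their detrusor means, had 1.54% of that of Pde3a. The urothelial call held with each array left out, and the stromal call held only without stroma 2 (3.30, adjusted p = 0.0271), with adjusted p of 0.0571 to 0.218 without any other and of 0.112 without stroma 3 and urothelium 3. With the pseudocount at the 5th percentile and at the median of all values, the difference against stroma was 3.47 (adjusted p = 0.107) and 1.42 (adjusted p = 0.0194), and that against urothelium 5.04 and 1.70. The other Pde3a probe sets, 1431913_a_at and 1431914_at, ran from 48.2 to 255 in detrusor, 79.3 to 405 in stroma and 15.8 to 240.2 in urothelium, and neither was called in a fit without the filter.

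Pde4d encodes a cAMP-specific phosphodiesterase. Probe set 1435280_at read 4868, 7552 and 7709.6 in detrusor, 3319, 359 and 917 in stroma, and 303, 359.7 and 1452 in urothelium. No detrusor array overlapped another layer, though stroma 1 came close to detrusor 1. The difference was 3.49 ± 0.75 against urothelium (11.2-fold, adjusted p = 0.013) and 2.61 ± 0.75 against stroma (adjusted p = 0.0863). Without stroma 1 the stromal difference was 3.42 and passed (adjusted p = 0.0286), as it did after median centring (3.02, adjusted p = 0.0426). The urothelial call was lost, narrowly, without detrusor 2 (3.39, adjusted p = 0.0511), detrusor 3 (3.37, adjusted p = 0.0582), urothelium 1 (3.10, adjusted p = 0.0514) or urothelium 2 (3.21, adjusted p = 0.0569). The Pde4d probe set 1459311_at lay between 2.33 and 27.7 on all arrays and did not pass the filter.

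Pde1a encodes a phosphodiesterase that calcium and calmodulin activate. Probe set 1449298_a_at read 1094, 305 and 1973 in detrusor, 268, 771 and 278 in stroma, and 376, 139 and 16.9 in urothelium. Detrusor 2 fell among the other layers, so the layers overlapped. Neither the difference of 1.10 ± 0.83 against stroma (adjusted p = 0.499) nor that of 2.52 ± 0.83 against urothelium (adjusted p = 0.0791) passed. The urothelial difference passed without detrusor 2 (3.23, adjusted p = 0.049) and without urothelium 1 (3.20, adjusted p = 0.049), and was 1.76 (adjusted p = 0.238) without stroma 3 and urothelium 3. The Pde1a probe set 1431625_at did not pass the filter and read at most 198.

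**Figure D2:**
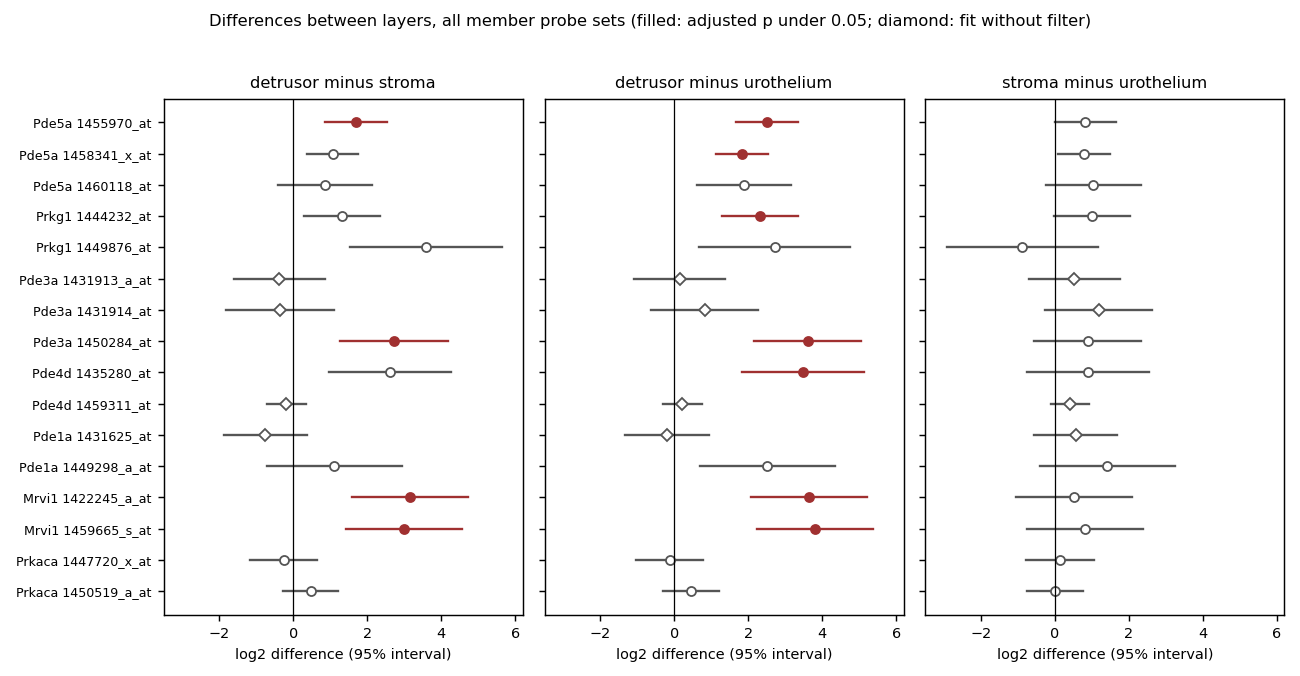
Log2 differences with 95% intervals (horizontal axis) of all 16 probe sets (rows) for detrusor minus stroma, detrusor minus urothelium and stroma minus urothelium. Filled points have an adjusted p under 0.05, and diamonds are the 4 probe sets that did not pass the filter, taken from a fit without it. The called points, 4 and 7 of them, all lie right of 0, and the stroma minus urothelium panel has none.

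Between stroma and urothelium none of the 7 genes was called in limma, and 1 had an unadjusted p under 0.05. Of all tested probe sets 0.0934% were called here, and without the filter 0.0400% of all were called and none of the 16. The unadjusted result was that of Pde5a 1458341_x_at, at 0.78 ± 0.32 (adjusted p = 0.274). All 7 genes had differences above 0, with a median of 0.88 beside 0.15 over all tested probe sets. The arrays of the layers did not overlap for 3 of the 12 probe sets, 2 of Pde5a and the Pde3a one, whereas 11.8% of all probe sets had all stroma arrays above all urothelium arrays. The order of stroma and urothelium within a gene is thus not beyond the spread by this test.

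Postnatal day, which was unevenly spread over the layers, was called for none of the 12 probe sets and for 5 of all 25695, with 1796 at an unadjusted p under 0.05. No probe set was called for a layer difference that changed with day, against 1494, 1267 and 1715 at an unadjusted p under 0.05 for detrusor minus stroma, detrusor minus urothelium and stroma minus urothelium. Within each day the detrusor level stayed above both other layers for Pde5a, Prkg1, Pde3a, Pde4d, Pde1a and Mrvi1. Mrvi1 1459665_s_at differed from stroma by 3.22 on day 1 and 2.85 on day 2, and from urothelium by 5.69 and 2.83. Pde5a 1455970_at differed from stroma by 1.47 and 1.66, and from urothelium by 2.40 and 2.43. Pde4d showed the widest gap between days against stroma, 0.86 on day 1 and 3.65 on day 2, each resting on 1 array of one of the layers. With day as a covariate, the stromal difference of Pde5a 1455970_at no longer passed (1.58, adjusted p = 0.0532).

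**Figure D3:**
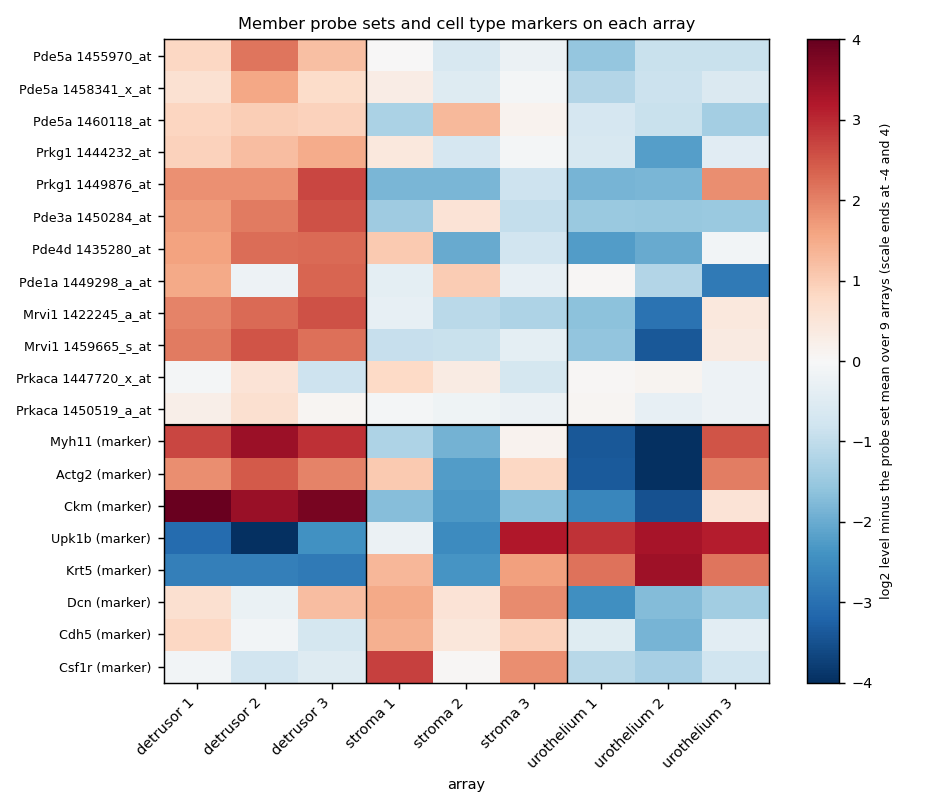
Log2 level of the 12 tested probe sets and 8 marker genes (rows) on each array (columns), minus the mean of that row over the 9 arrays, with colours ending at -4 and 4. Detrusor columns are red for the members other than Prkaca 1447720_x_at, except Pde1a in detrusor 2. Urothelium 3 is red for Myh11, Actg2 and Prkg1 1449876_at and blue for Pde3a and Pde1a, and stroma 3 is red for Upk1b and Krt5.

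The genes also differed in how far they followed the contractile marker over the 9 arrays, which are described here by Pearson's r and not tested, since the arrays fall into layers. With Myh11 the r was 0.96 for Mrvi1, 0.84 for Prkg1, 0.84 for Pde4d, 0.76 for Pde5a, 0.68 for Pde3a, 0.19 for Pde1a and -0.29 for Prkaca. Between members the highest values were 0.92 for Prkg1 with Mrvi1 and 0.92 for Pde5a with Pde4d. Probe sets of 1 gene followed each other closely for Mrvi1 (0.98) and for the brighter Pde5a pair (0.99), less so for Prkg1 (0.70), and little for Prkaca (0.26). The dim Pde5a probe set 1460118_at followed the brighter pair less, with 0.61 for 1455970_at and 0.54 for 1458341_x_at.

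The genes whose pattern over the 9 arrays was most like that of a member, among 13064 genes at 1 probe set each, were ranked by the same measure. For Mrvi1 they were Slc24a3 (0.99), a sodium, potassium and calcium exchanger, Aoc3 (0.99), an amine oxidase of smooth muscle and fat, and Tns1 (0.99), the adhesion protein tensin. For Pde4d they were Ppp1r14a (0.98), an inhibitor of myosin phosphatase, Trem2 (0.97) and Thrsp (0.97). Prkg1 was closest to Dnajb5 (0.98), Itpk1 (0.98) and Dcaf6 (0.98), and Pde3a to Plpp7 (0.97), Bmpr1a (0.97) and Nbea (0.96). Pde5a was closest to Gmppa (0.96), Rwdd2a (0.96) and Ndufb9 (0.95), and Pde1a to Ahcy (0.95), Cby1 (0.92) and Helb (0.91). Prkaca, read from 1447720_x_at, was closest to Slc25a36 (0.95), Wac (0.94) and Sco1 (0.94).

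The rest of the pathway was read from 5 lists with 97 genes, of which 76 were tested. Their counts are a description, since the lists were chosen with earlier results of these data known. Set against stroma, detrusor was called higher for 16 of the 76 and lower for 1, and set against urothelium higher for 22 and lower for 2. In the fit with 1 probe set for each gene, 408 of 13064 genes were called higher and 355 lower against stroma. Against urothelium these were 1051 and 1094. None of the 76 was called between stroma and urothelium. All counts of list genes that follow are of genes called at an adjusted p under 0.05. On the cGMP side, 0 of 11 tested genes were called against stroma, where the list median was -0.43 (-0.28 after quantile normalization and -0.02 after median centring). Against urothelium 1 of 11 was called, a share near that of all genes called higher, and the list median was 1.13. That was Nppa, an atrial natriuretic peptide, with 429, 377 and 435 in detrusor, 158, 242 and 40.6 in stroma, and 50.6, 6.92 and 41.0 in urothelium (2.70 ± 0.62, adjusted p = 0.0177). The call was lost without detrusor 1, detrusor 2, detrusor 3 or urothelium 2, where the difference was 2.41 to 2.76 and the adjusted p 0.0526 to 0.0804. The subunits of soluble guanylate cyclase, the nitric oxide receptor, were looked at after their values were seen. Gucy1a1 differed by 0.78 against stroma (adjusted p = 0.461) and 1.57 against urothelium (adjusted p = 0.0963), and Gucy1b1 by 0.43 (adjusted p = 0.742) and 1.67 (adjusted p = 0.114).

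On the cAMP side, 3 of 19 tested receptor, G protein and cyclase genes, Ramp1, Adcy5 and Gnai1, were called higher in detrusor against both other layers. Among the 13064 genes of the fit with 1 probe set for each gene, 408 were called higher against stroma and 1051 against urothelium. In each comparison 1 of the 19 was called lower, beside 1.51% and 5.46% of all probe sets. Of the 13064 genes, 355 and 1094 were called lower in turn. The 1 of 19 called lower against urothelium is thus not above the share over all genes. Differences lay above 0 for 9 of 19 against stroma and 14 of 19 against urothelium. The list medians were -0.07 against stroma (0.35 after median centring) and 0.62 against urothelium. Ramp1, a partner of the receptor for calcitonin gene-related peptide, had 5155, 3946 and 3007 in detrusor, 325, 296 and 299.98 in stroma, and 192, 83.1 and 270.3 in urothelium. It differed by 3.52 ± 0.45 against stroma (adjusted p = 0.00427) and 4.27 ± 0.45 against urothelium (adjusted p = 0.000689), and both calls held with each array left out. Calcrl, which encodes the receptor that Ramp1 completes, ran the other way against stroma, with 322, 229 and 367 in detrusor and 2217, 1069.7 and 985 in stroma (-2.01 ± 0.48, adjusted p = 0.0452). The endothelial marker Cdh5 was at 5003, 2566 and 1682 in detrusor and 7461, 3856 and 5263 in stroma, and its part in the Calcrl result was not tested. Adcy5, an adenylyl cyclase, was higher in detrusor by 3.54 ± 0.79 and 4.61 ± 0.79 (adjusted p = 0.0361 and 0.00471), and Gnai1, an inhibitory G protein subunit, by 1.69 ± 0.30 and 2.17 ± 0.30 (adjusted p = 0.0184 and 0.00214). Vipr1, a receptor for vasoactive intestinal peptide, was lower in detrusor than in urothelium (-2.65 ± 0.70, adjusted p = 0.0325), at 8.76 to 15.3 in detrusor and 180.25 to 424 in urothelium. Against urothelium the calls of Ramp1, Adcy5 and Gnai1 held with each array left out. Against stroma Gnai1 was lost without detrusor 2 (1.52, adjusted p = 0.0754) or detrusor 3 (1.74, adjusted p = 0.0821), without stroma 3 and urothelium 3 (1.67, adjusted p = 0.0515) and without the variance trend (adjusted p = 0.0524). Adcy5 was lost there without any array but urothelium 2 or 3 (3.31 to 3.69, adjusted p up to 0.133), without the trend (adjusted p = 0.0648) and with the pseudocount at the 5th percentile (adjusted p = 0.0503). Calcrl held in only 4 of 10 alternatives, being lost after quantile normalization, after median centring, without the filter, without the trend, with day as a covariate and without stroma 3 and urothelium 3 (adjusted p of 0.0542 to 0.0951). It was also lost without any array but urothelium 2 (-2.22 to -1.65, adjusted p up to 0.142). Vipr1 was lost without any detrusor or urothelium array (-2.92 to -2.38, adjusted p up to 0.113) and without stroma 3 and urothelium 3 (-2.38, adjusted p = 0.0825).

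Around PKA, 17 genes were tested, and detrusor was called higher for 5 of them against stroma and for 7 against urothelium, with none called lower. Over all 13064 genes, 408 and 1051 were called higher in turn. Differences lay above 0 for 14 and 15 of the 17, with list medians of 0.86 and 0.93. Prkacb, the beta catalytic subunit, read 7115, 8832 and 9299.6 in detrusor, 2429.8, 2634 and 1332 in stroma, and 1045, 802 and 1806 in urothelium. It was called where Prkaca was not, by 2.01 ± 0.39 against stroma (adjusted p = 0.0234) and 2.82 ± 0.39 against urothelium (adjusted p = 0.00214), and the gap between these subunits was not itself tested. The regulatory subunit gene Prkar1a was higher than in stroma (1.41 ± 0.27, adjusted p = 0.023) and Prkar1b higher than in urothelium (2.74 ± 0.59, adjusted p = 0.0134). Of 9 genes of anchoring proteins that hold PKA in place, 3 were called higher against stroma and 4 against urothelium, beside the same counts over all genes. Akap7, Akap9, Akap11, Akap12 and Akap13 were called against neither, and Akap9 (-0.78) and Akap12 (-0.81) ran the other way against stroma. Akap5 differed by 4.52 ± 1.03 and 3.67 ± 1.03 (adjusted p = 0.0389 and 0.0426), Akap6 by 2.58 ± 0.63 and 3.63 ± 0.63 (adjusted p = 0.0493 and 0.00487) and Akap1 by 1.54 ± 0.37 and 1.32 ± 0.37 (adjusted p = 0.0475 and 0.0428) against stroma and urothelium in turn. Akap2 (2.34 ± 0.49, adjusted p = 0.012) and the PKA inhibitor gene Pkig (2.00 ± 0.30, adjusted p = 0.0028) were higher than in urothelium. Against urothelium the calls of Prkacb, Pkig, Akap2 and Akap6 held with each array left out, that of Prkar1b was lost without detrusor 1 (2.47, adjusted p = 0.0585), and those of Akap5 and Akap1 were each lost without any 1 of 5 or more arrays. Under the 10 other alternatives Akap5 was called in 7 against either layer, Akap1 in 4 against stroma and 5 against urothelium, Akap6 in 4 against stroma and Prkar1a in 8. No gene of this list was called against stroma without detrusor 1, detrusor 2, detrusor 3 or stroma 3, and 2 were without stroma 3 and urothelium 3.

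Of 11 other phosphodiesterase genes tested, 1 was called higher in detrusor against stroma, and 3 were called higher and 1 lower against urothelium. Over all 13064 genes, 408 were called higher against stroma, and 1051 higher and 1094 lower against urothelium. The 1 of 11 called lower is thus near the share over all genes. Differences lay above 0 for 6 and 8 of the 11, with list medians of 0.16 and 0.82. Pde9a, a cGMP-specific enzyme, read 6791, 5256 and 6639.9 in detrusor, 1120.35, 1501 and 1590.3 in stroma, and 1017, 647 and 1654 in urothelium. It was called against stroma (2.12 ± 0.38, adjusted p = 0.0188) and urothelium (2.54 ± 0.38, adjusted p = 0.00282), and the stromal call was lost without detrusor 1, detrusor 2 or detrusor 3 (2.06, 2.24 and 2.07, adjusted p of 0.0589 to 0.093). Against urothelium, Pde4b (2.64 ± 0.74, adjusted p = 0.043) and Pde1b (1.87 ± 0.53, adjusted p = 0.043) were higher. Pde7a was lower (-1.38 ± 0.37, adjusted p = 0.0339), with 2069.6 to 2326 in detrusor and 4795 to 8149 in urothelium. These 3 calls were lost without any 1 detrusor array and without urothelium 1 or 2, and those of Pde1b and Pde7a also without urothelium 3. There Pde4b differed by 2.20 to 2.69 (adjusted p up to 0.155), Pde1b by 1.74 to 1.97 (adjusted p up to 0.121) and Pde7a by -1.52 to -1.14 (adjusted p up to 0.127). Of the 10 other alternatives, Pde4b was called in 5 and Pde1b and Pde7a in 6 each, and neither Pde1b nor Pde7a was called without stroma 3 and urothelium 3 (adjusted p = 0.117 and 0.054).

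Targets of the kinases had list medians of 1.44 against stroma and 1.11 against urothelium. Of 18 tested genes, detrusor was called higher for 7 against stroma and for 8 against urothelium, with none called lower. Over all 13064 genes, 408 and 1051 were called higher in turn. Differences lay above 0 for 14 of the 18 in each comparison. Phospholamban (Pln), which restrains the calcium pump of the stores, read 3821, 12065 and 2689 in detrusor, 70.7, 90.7 and 402 in stroma, and 74.9, 116 and 157 in urothelium. On urothelium 3 Pln was below every detrusor array, as were Myh11, Cnn1, Des, Smtn and Lmod1 among the smooth muscle markers, to differing degrees. Its differences were 4.77 ± 0.67 against stroma (adjusted p = 0.00739) and 5.05 ± 0.67 against urothelium (adjusted p = 0.00176). Hspb6, the small heat shock protein that PKA and the cGMP-dependent kinase phosphorylate in relaxation, differed from urothelium by 4.35 ± 0.52 (adjusted p = 0.00112). The calls of Pln and Hspb6 against both layers held with each array left out.

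Of the myosin phosphatase genes on this list, both regulatory subunit genes were called and Ppp1cb, of the catalytic subunit, was not (1.21, adjusted p = 0.069 against stroma and 0.78, adjusted p = 0.162 against urothelium). Ppp1r12b was higher by 3.54 ± 0.54 against stroma and 3.17 ± 0.54 against urothelium (adjusted p = 0.0109 and 0.00473), and Ppp1r12a by 2.32 ± 0.36 and 1.5 ± 0.36 (adjusted p = 0.0114 and 0.0228). Ppp1r14a, which inhibits the phosphatase, was higher as well, by 2.86 ± 0.62 and 4.33 ± 0.62 (adjusted p = 0.0331 and 0.00227). Rgs2, a regulator of G protein signalling that the cGMP-dependent kinase activates, was higher than in urothelium (4.42 ± 0.97, adjusted p = 0.0143), and Vasp, an actin regulator and classical kinase substrate, was higher than in both (1.67 ± 0.33 and 1.18 ± 0.33, adjusted p = 0.0236 and 0.0417). The other called targets, named after their values were seen, encode parts of the large-conductance potassium channel: Kcnma1 against stroma (1.86 ± 0.43, adjusted p = 0.0413) and Kcnmb1 against urothelium (4.31 ± 0.95, adjusted p = 0.0146). Kcnma1 lost its call with each of the 9 arrays left out in turn (adjusted p of 0.0507 to 0.138), without stroma 3 and urothelium 3 (1.85, adjusted p = 0.108) and in 4 other alternatives. Vasp was called in 8 of 10 alternatives against stroma and 5 against urothelium, and in neither comparison without stroma 3 and urothelium 3 (adjusted p = 0.074 and 0.112). Without the trend Ppp1r14a lost its stromal call (adjusted p = 0.0601) and Ppp1r12a its urothelial one (adjusted p = 0.0631), which was also lost after median centring (adjusted p = 0.0523). Leaving out detrusor 2 or detrusor 3 reduced the calls on this list to 2 against stroma and 4 against urothelium, and leaving out urothelium 2 left 4 against urothelium. Without stroma 3 and urothelium 3 they were 5 and 8. Some targets uncalled at their brightest probe set in a comparison were called higher in detrusor at another, and these are named after their values were seen. Against stroma and urothelium in turn, 2 and 2 of 3 tested probe sets of Mylk were called higher, and 2 and 3 of 5 of Atp2a2. For Rgs2 these were 2 and 3 of 4, where the count against urothelium includes the brightest probe set. For Kcnma1 they were 1 and 1 of 4, where the one called against stroma is the brightest, already given above. Skeletal muscle markers were high in the same detrusor arrays, and their part in these lists was not tested.

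**Figure D4:**
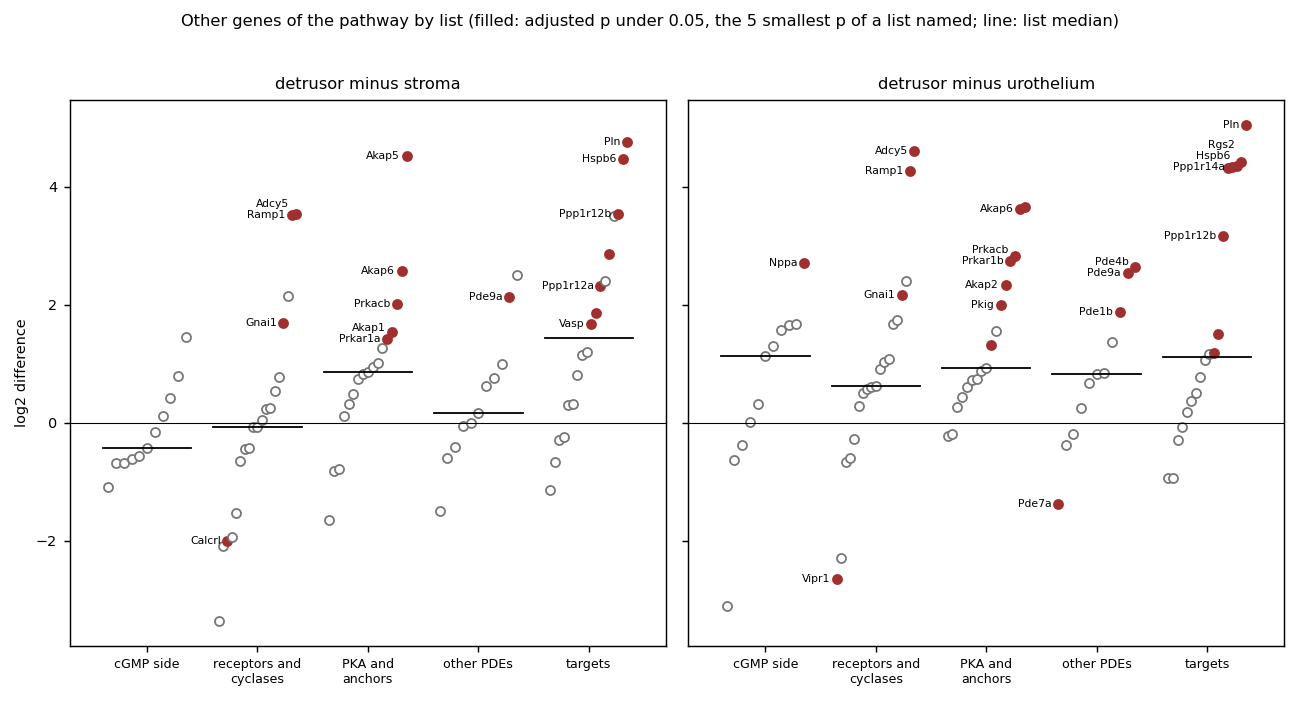
Log2 difference (vertical axis) of each tested gene in the 5 pathway lists (horizontal axis) for detrusor minus stroma and detrusor minus urothelium. Filled points have an adjusted p under 0.05, the 5 with the smallest p in each list are named, and lines mark list medians. Most filled points lie above 0, and those below it are Calcrl against stroma and Vipr1 and Pde7a against urothelium.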

How the data were processed

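The members and the pathway lists were chosen with earlier results of these data known. RNA from each laser-captured sample was amplified in 2 rounds, labelled with biotin and hybridised to 1 Affymetrix MOE430 array, per the labels' protocols. The authors deposited 1 intensity per probe set on a linear scale. Per the submitters' processing notes it came from the GCOS software, for which the sources used here name neither version nor algorithm. Every array had a mean of 1500 once the outer 2% of its values were set aside, so the authors' scaling was kept. Array medians ran from 133 to 388 intensity units. No detection calls were given, so no value is called absent, and the number of arrays limits the precision.

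A pseudocount of 39.3, the 20th percentile of all intensities, was added before log2 was taken, so fold changes understate the change of dim probe sets. The 25695 of 45037 non-control probe sets at or above the array median on at least 3 arrays were compared between layers in 1 fit (limma 3.58.1 in R 4.3.3, with eBayes set to fit a trend of variance on level), tested on simulated data, with Benjamini-Hochberg adjustment over all of them and calls at an adjusted p under 0.05. A gene was read from its brightest probe set that passed. Symbols come from the platform annotation, which gave 34945 probe sets 1 symbol, 932 several and 9160 none. They were looked up through gene identifiers in a GRCm38.p6 table (34741 matched), which changed 0 of them. Promoter windows come from RefSeq, GRCm38.p6. Genes named are the members, the called genes of each pathway list up to the 5 smallest p in a comparison, the 3 genes most like each member, and markers. Exceptions are stated.

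Alternatives were quantile normalization, median centring, 2 pseudocounts (8.14 and 233), no filter, 1 probe set for each gene, no trend, array weights, day as a covariate, each array left out, and stroma 3 and urothelium 3 left out together.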

Additional observations from a re-analysis of the deposited data

How the results depend on the processing

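The number of member genes higher in detrusor than in stroma, 2 in the fit reported, was 3 after quantile normalization and 3 after median centring, 0 with the pseudocount at the 5th percentile, 1 without the filter, 1 without the trend, 1 without stroma 3 and urothelium 3, and 0 to 1 with 1 array left out. It was 0 without detrusor 1, detrusor 2, detrusor 3, stroma 3 or urothelium 1. Against urothelium the number stayed between 4 and 6 under every alternative, and between stroma and urothelium it stayed 0. Over the tested member probe sets, 593 of 669 alternative values kept direction and side of the threshold, 44 lost the call, 19 gained it and 0 changed direction past the threshold. The other 13 changed sign while uncalled in both fits, 9 of them for Prkaca and the rest for Mrvi1 and Prkg1 1449876_at between stroma and urothelium. Over all probe sets, 915 were called between detrusor and stroma, 538 without the trend, 592 without stroma 3 and urothelium 3, and 73 to 928 with 1 array left out, the lowest without detrusor 3. Between detrusor and urothelium 2827 were called, 5482 with array weights, and 1315 to 3235 with 1 array left out, the lowest again without detrusor 3. Between stroma and urothelium 24 were called, 37 after quantile normalization, 0 after median centring (3937 at an unadjusted p under 0.05), 58 with the pseudocount at the median, 0 without the trend, 384 without stroma 3 and urothelium 3, and 0 to 554 with 1 array left out, the highest without stroma 3. Fewer samples enter the fits that leave arrays out; otherwise the cause was not tested. The split of detrusor and stroma calls, 527 higher and 388 lower, was 713 and 387 after quantile normalization and 873 and 181 after median centring, which moved the median difference of all probe sets from -0.17 to 0.25, and between stroma and urothelium from 0.15 to -0.27. No paired analysis was possible because the labels carry no replicate numbers and do not tie samples to animals.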
